A study of Mus musculus with 12 samples.

Results

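Olfactory receptor (Olfr) genes encode the odorant receptors of the nose, and the 306 regions described here are the open chromatin regions of mouse regulatory T cells (Treg) that lie at these genes. A region was taken as an Olfr region when it overlapped the body of a gene whose symbol starts with Olfr, or the 10 kb on either side of that body, on the mm9 build. The rule used no measured value, and it chose 306 of the 118680 regions in the table (0.258%). The study compared chromatin accessibility between Treg with and without Ikaros, a zinc finger transcription factor encoded by Ikzf1, before and after stimulation through the T cell receptor. Accessibility was measured by ATAC-seq, in which Tn5 transposase inserts adapters into DNA that is not covered by nucleosomes, in YFP+ Treg sorted from the spleen, at 100000 cells a library. The 4 groups held 3 libraries each: WT ex vivo, Ikzf1-cko ex vivo, WT stimulated and Ikzf1-cko stimulated. WT Treg came from Foxp3-YFP-Cre mice and Ikzf1-cko Treg from Ikzf1-fl-Foxp3-YFP-Cre mice on the B6 background, so that Cre and YFP, driven from Foxp3, were present in all 4 groups and the deletion was restricted to cells that had switched on Foxp3. Stimulated Treg had been on plate-bound anti-CD3 and anti-CD28 for 4 hr. The sorted cells had been divided between the 2 states, so stimulated and ex vivo libraries of a genotype can share their source, and the tests of stimulation treat them as separate samples because the sources used here do not tie one library to another. The age of the mice used for ATAC-seq and the number of mice behind a library are not given in the sources used here, and the p-values below measure only the spread between libraries.

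In an olfactory sensory neuron, a single Olfr allele is transcribed, and that choice rests on clusters of enhancers that are bound by Lhx2, Ebf and Ldb1 and brought together in the nucleus. In other cell types the Olfr genes lie in large, gene-dense but silent clusters that carry heterochromatin marks. Reads that fall there in an ATAC-seq library of T cells are therefore often read as background. ATAC-seq averages over the cells of a library, so more cells with an open region and more accessibility in each cell cannot be told apart.

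Few Olfr genes had a region at all. Of the 1251 Olfr genes annotated on mm9, of which 1113 are protein coding and 133 are pseudogenes, 266 (21.3%) had a region in their window. The windows covered 21.2 Mb and held 14.5 regions per Mb, against 46.3 per Mb over the genome. The 306 regions lay on 17 chromosomes and in 36 of 52 Olfr gene clusters, a cluster being Olfr genes with gaps under 1 Mb. Of these regions, 56 lay over an Olfr gene body, 27 over an Olfr exon and 3 over an Olfr start site, those of Olfr1344, Olfr641 and Olfr658. Another 32 lay within 1 kb of the start site of a gene that is not an Olfr gene, and the remaining 274 had no such start site. Olfr56, on chromosome 11, stood apart: 28 regions had it as their nearest Olfr gene, beside interferon-inducible GTPase genes such as Tgtp1, Tgtp2 and Ifi47. A region entered the table only where at least 2 replicates of a group had a peak, so the 306 regions are the places at Olfr genes that were open enough to be called in some group. At the edge of the window, OCR_17898 lay just inside, 9964 bp from Olfr1371, with a mean of 9.76 FPKM over the 12 libraries, and OCR_18296 just outside, 10085 bp from Olfr225, with 10.2 FPKM. FPKM here is the number of reads of a region scaled by its length and by the reads counted in all regions of the library.

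The central 300 bases of 4 Olfr regions are shown, since they are among the called regions with the smallest p-values in the comparisons below and have no other gene's start site nearby. Capitals mark GGGAA, the core motif bound by Ikaros, or its reverse complement TTCCC. They were read from the + strand of mm9 at chr7:6515566-6515865 (OCR_98683, 6499 bp from Olfr1350), chr16:59370066-59370365 (OCR_46584, 7842 bp from Olfr209), chr6:42746689-42746988 (OCR_92654, 5516 bp from Olfr452) and chr10:128957371-128957670 (OCR_15893, 5293 bp from Olfr791). The first held 3 copies of the motif, the second held 2 and the others held 0.
OCR_98683: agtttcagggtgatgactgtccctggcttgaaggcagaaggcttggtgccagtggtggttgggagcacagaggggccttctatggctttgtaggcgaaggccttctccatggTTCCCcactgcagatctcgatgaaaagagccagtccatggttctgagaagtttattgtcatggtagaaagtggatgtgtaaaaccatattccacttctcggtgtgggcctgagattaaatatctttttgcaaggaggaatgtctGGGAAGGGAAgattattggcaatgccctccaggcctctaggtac
OCR_46584: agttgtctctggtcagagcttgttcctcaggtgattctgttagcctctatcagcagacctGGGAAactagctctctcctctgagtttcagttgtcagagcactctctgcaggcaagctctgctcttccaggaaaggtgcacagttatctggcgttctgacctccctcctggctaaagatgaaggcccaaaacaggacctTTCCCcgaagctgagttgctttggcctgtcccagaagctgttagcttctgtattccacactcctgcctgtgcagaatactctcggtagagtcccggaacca
OCR_92654: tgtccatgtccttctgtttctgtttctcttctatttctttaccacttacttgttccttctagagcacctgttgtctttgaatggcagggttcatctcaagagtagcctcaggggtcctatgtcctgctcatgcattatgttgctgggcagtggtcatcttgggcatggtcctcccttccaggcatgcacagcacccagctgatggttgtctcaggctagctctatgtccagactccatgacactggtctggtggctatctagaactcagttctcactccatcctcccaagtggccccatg
OCR_15893: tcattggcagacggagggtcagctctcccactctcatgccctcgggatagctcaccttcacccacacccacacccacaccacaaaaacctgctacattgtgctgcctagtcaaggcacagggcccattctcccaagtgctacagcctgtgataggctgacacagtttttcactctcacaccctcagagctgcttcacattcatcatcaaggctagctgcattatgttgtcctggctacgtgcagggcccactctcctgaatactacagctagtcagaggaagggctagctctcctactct

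Over all Olfr regions the letters searched were about as frequent as elsewhere. GGGAA, on either strand, was found in the central 300 bases of 183 of the 306 Olfr regions (59.8%), of 59.0% of all regions and of 60.2% of regions more than 50 kb from any gene. TGANTCA, the AP-1 motif, was in 12.4% of Olfr regions and 14.3% of all regions, and TAATTA, a core read by homeodomain factors such as Lhx2, in 4.90% and 4.15%. The palindromic Ebf motif (TCCC and GGGA with any 2 bases between), which may overlap GGGAA, was in 4 Olfr regions (1.31%) against 0.854% of all regions. The CTCF motif was in 4.25% of Olfr regions, 3.94% of all regions and 1.90% of the regions far from genes. Olfr regions had a median length of 360.5 bp, against 410 bp over all regions, and a median GC content of 50.3%, against 50.0%. These are descriptions of sequence, with no test. A further 9 Olfr regions had a second copy in the genome (95% identity over at least 80% of the region), and their reads may be shared with it.

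Depth differed with genotype. The WT libraries held 4808916 to 8596567 reads in regions and the Ikzf1-cko libraries 9221901 to 15355521, so that depth and genotype cannot be told apart. The median Olfr region had 11 to 25 reads, depending on the library, and at most 1 Olfr region had no read in a library. Regions were open at the start sites of Foxp3 (group means 10.2 to 14.6 FPKM), Il2ra (21.6 to 25.1) and Cd4 (18.1 to 21.7), as the Treg label asks. No region lay over the start site of the B cell genes Ms4a1 and Cd79a, the myeloid genes Lyz2, Itgam and Csf1r, the globin gene Hbb-b1 or Ikzf2, which many Treg express. The CD8 T cell genes had regions too, Cd8a at 3.58 to 9.47 FPKM and Cd8b1 at 8.92 to 13.4, and Cd8b1 was lower in Ikzf1-cko ex vivo (8.92 ± 0.174 against 13.4 ± 1.81 FPKM, SD, n = 3, log2 -0.61, adjusted p = 0.000299, edgeR). The erythroid gene Gata1 had 4.41 to 8.53 FPKM. The part of other cell types in the Olfr values was not tested. The Ikzf1 start site was open in all groups (16.9 to 23.6), and that region does not test the deletion.

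The share of a library's reads that fell in Olfr regions was lowest in Ikzf1-cko ex vivo and highest in WT stimulated Treg. It was 0.129%, 0.130% and 0.123% in the WT ex vivo libraries, and 0.110%, 0.107% and 0.114% in Ikzf1-cko ex vivo. After stimulation it was 0.160%, 0.153% and 0.160% in WT and 0.124%, 0.124% and 0.116% in Ikzf1-cko. The libraries of the groups did not overlap in any of the 4 comparisons. With genotype labels permuted within each stimulation state, the share in Ikzf1-cko differed from WT by -0.0268 percentage points (exact permutation test, two-sided, p = 0.005, the smallest that the 400 arrangements allow, adjusted p = 0.03 over 30 such tests). With stimulation labels permuted within each genotype, it was 0.0205 percentage points higher after stimulation (exact permutation test, p = 0.005, adjusted p = 0.03). Single comparisons of 3 with 3 libraries cannot go below an exact p of 0.1, and all 4 reached it (adjusted p = 0.143). The Ikzf1-cko mean minus the WT mean was -0.0170 percentage points ex vivo and -0.0366 after stimulation, ratios of 0.866 and 0.768. Whether these differences themselves differed was not tested. Each library entered 2 of the 4 comparisons, so they are not independent of each other. With a window of 50 kb, which brings in regions of neighbouring genes, both differences of the share missed the threshold (p = 0.12 and p = 0.125, exact permutation tests).

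The differences lay in the 274 Olfr regions that had no start site of another gene. Their share averaged 0.0905% ± 0.00483 (SD, n = 3) in WT ex vivo, 0.0749% ± 0.00303 in Ikzf1-cko ex vivo, 0.124% ± 0.00336 in WT stimulated and 0.0849% ± 0.00518 in Ikzf1-cko stimulated libraries. The 32 Olfr regions at another gene's start site differed less, at 0.0368%, 0.0353%, 0.0336% and 0.0361% in the same order. In this smaller set the stimulated WT libraries were the lowest, below both the WT ex vivo and the Ikzf1-cko stimulated libraries without overlap. The 28 regions nearest Olfr56 summed to 115, 113, 116 and 131 CPM (reads scaled by the library's reads in all regions) in the 4 groups and overlapped between libraries except after stimulation of Ikzf1-cko Treg, where they were 1.16 times higher. The 56 regions over an Olfr gene body summed to 203, 180, 232 and 203 CPM.

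**Figure D1:**
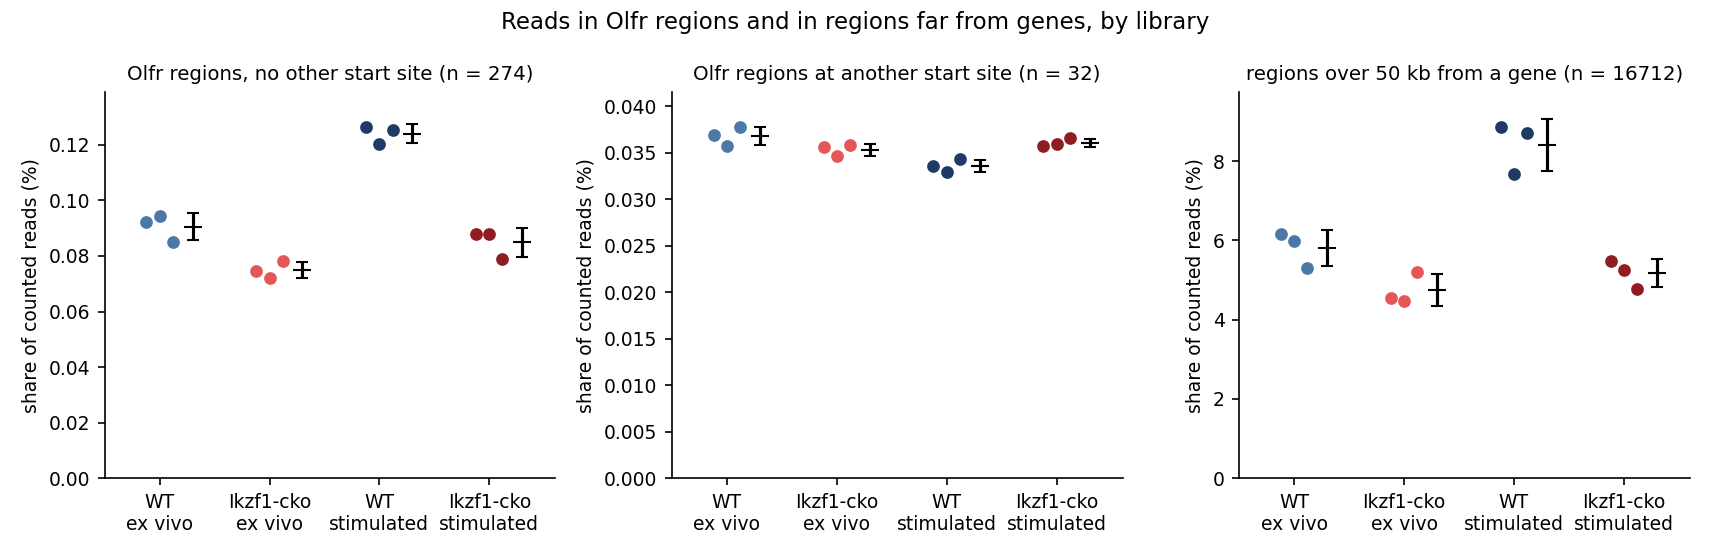
Share of each library's counted reads (percent, vertical axis of each panel) in the 274 Olfr regions without another start site, in the 32 Olfr regions at another gene's start site and in the 16712 regions more than 50 kb from any gene, by group. Points are libraries and black bars are the mean and SD (n = 3). WT stimulated libraries are the highest in the first and last panels (0.120% to 0.126% in the first) and the lowest in the second.

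The level of a typical Olfr region followed the same order. The median over the 306 regions was 6.14, 6.71 and 4.93 FPKM in the WT ex vivo libraries and 3.78, 3.52 and 4.66 FPKM in Ikzf1-cko ex vivo. It was 11.5, 10.4 and 10.95 FPKM in WT stimulated and 6.35, 6.01 and 5.17 FPKM in Ikzf1-cko stimulated libraries. In WT stimulated Treg, the median FPKM of the Olfr regions was thus close to that of the whole table. The ratio of the 2 medians was 1.00 ± 0.0041 (SD, n = 3). That ratio was 0.767 ± 0.0657 in WT ex vivo, 0.628 ± 0.0552 in Ikzf1-cko ex vivo and 0.838 ± 0.0294 in Ikzf1-cko stimulated libraries. The difference of this ratio was -0.151 for Ikzf1-cko against WT within stimulation states and 0.222 for stimulated against ex vivo within genotypes (exact permutation tests, p = 0.005, adjusted p = 0.03 for each). Regions far from genes moved likewise. In WT ex vivo, Ikzf1-cko ex vivo, WT stimulated and Ikzf1-cko stimulated libraries, those over 50 kb from a gene had medians of 5.47, 3.52, 11.49 and 5.02 FPKM. Over all regions the medians were 7.705, 6.32, 10.95 and 6.96 FPKM (group means). Regions at start sites of annotated genes were set against the 274 Olfr regions without another gene's start site. Their median was 3.36, 5.48, 1.80 and 3.96 times that of the 274 in the same order of groups (group means).

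**Figure D2:**
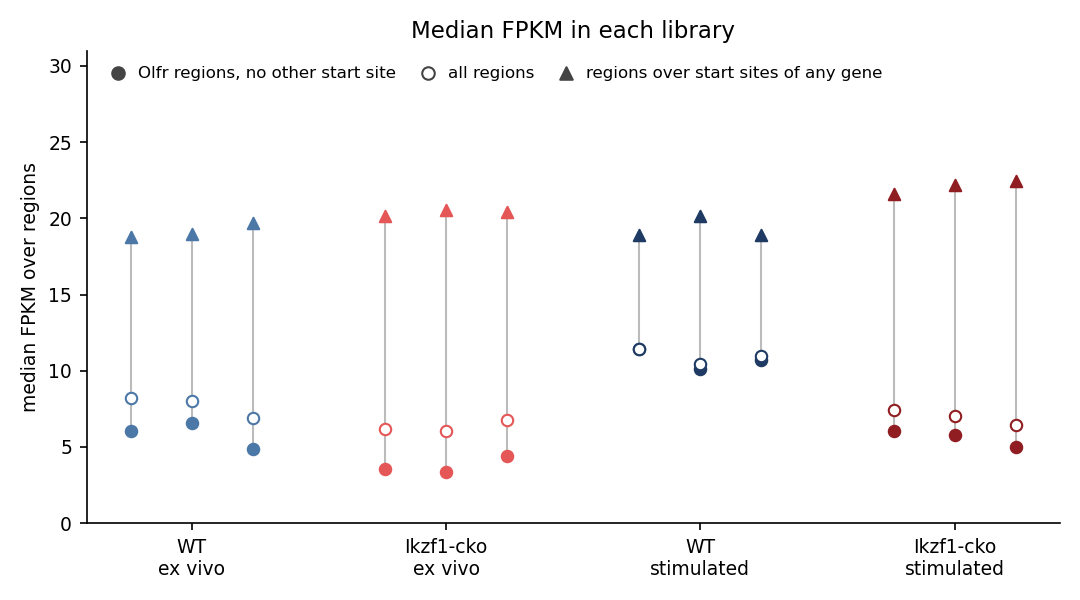
Median FPKM (vertical axis) in each of the 12 libraries of the Olfr regions without another start site (filled circles), of all regions (open circles) and of regions at gene start sites (triangles). The Olfr medians lie close to those of all regions in the WT stimulated libraries and further below them in the other 9, while the start-site medians lie between 18.8 and 22.4 FPKM.

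Many single Olfr regions had the same extremes. The highest of the 4 group means was that of WT stimulated for 212 of the 306 regions (69.3%, against 53.9% of all regions), and the lowest was that of Ikzf1-cko ex vivo for 207 (67.6%, against 46.6%). Both held for 191 regions (62.4%, against 38.7%). With counts thinned to the smallest library, 0 to 1 Olfr regions had 3 reads or fewer in a WT stimulated library, against 11 to 38 in WT ex vivo, 44 to 76 in Ikzf1-cko ex vivo and 9 to 25 in Ikzf1-cko stimulated libraries. Regions with so few reads were not counted over the whole table. The range among Olfr regions was widest in Ikzf1-cko ex vivo Treg, where the upper quartile of the group means was 2.67 times the lower. It was narrowest in WT stimulated Treg, at 1.44 times. Over all regions the same groups were the widest and the narrowest, at 3.21 and 1.69 times.

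Regions far from any gene and regions at other chemoreceptor genes were set beside the Olfr regions, to see how far the pattern was their own. The 16712 regions more than 50 kb from a gene held 5.82% ± 0.457 (SD, n = 3) of reads in WT ex vivo, 4.75% ± 0.408 in Ikzf1-cko ex vivo, 8.41% ± 0.649 in WT stimulated and 5.17% ± 0.359 in Ikzf1-cko stimulated libraries. Olfr reads relative to these reads did not show a difference between genotypes ex vivo (log2 difference 0.09, exact permutation test, p = 0.2). After stimulation the Olfr regions were 0.32 higher in Ikzf1-cko on that scale, without overlap (exact permutation test, p = 0.1), and for stimulation of WT Treg the log2 difference was -0.22, also without overlap (p = 0.1, exact). With all Olfr regions pooled, the far regions thus differed more than the Olfr regions did in both comparisons that hold the WT stimulated libraries. Over both states the genotype difference was 0.20 (exact permutation test, p = 0.01, adjusted p = 0.05). This pool includes 32 regions at another gene's start site. Their ratios of mean CPM were 1.07 for genotype after stimulation and 0.913 for stimulation of WT Treg. In the same order, the 274 other Olfr regions gave 0.685 and 1.37, and far regions 0.615 and 1.45. The pool gave 0.768 and 1.24. The far regions still differed more than the 274 did, but by less, and that gap was not tested. Against the 102 regions at vomeronasal, taste and trace amine receptor genes, families of other sensory receptors, the log2 differences of the Olfr regions ran from -0.06 to 0.09 in the 4 comparisons, where 3 against 3 libraries cannot give a p below 0.1. Over both states the genotype difference was 0.05 (exact permutation test, p = 0.135) and the stimulation difference -0.03 (exact permutation test, p = 0.415), and a p that misses the threshold does not show that both kinds of region act alike. Against the 97 regions at start sites of ribosomal protein genes, which every cell uses, Olfr regions were lower in Ikzf1-cko, with a log2 difference of -0.53 (exact permutation test, p = 0.005, adjusted p = 0.03), and no WT library overlapped an Ikzf1-cko library of the same state. Stimulation gave 0.17 on that scale (p = 0.04, adjusted p = 0.143, exact permutation test).

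Region by region, the Olfr regions were tested with edgeR's quasi-likelihood test in a model of the 12 libraries over the whole table, and a region was called at an adjusted p (Benjamini-Hochberg) under 0.05 and a log2 fold change over 1 in size. Counts over the 306 regions come from the fit without a filter on low counts, because the filter of 3.6 CPM in 3 libraries kept 139 of them, 40 of these only through WT stimulated libraries. Regions kept in that way had to differ between groups. Levels in the fits are relative to the reads of all regions, and scaling on ribosomal protein gene start sites instead put the median tested region at -0.29 ex vivo and -0.42 after stimulation between genotypes, against -0.13 and -0.11.

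Ex vivo, 27 of the 306 Olfr regions were lower in Ikzf1-cko and 0 higher (edgeR, no filter), where 5.63% of all regions were called lower and 0.479% higher. DESeq2 and TMM scaling, run with the filter, each called 1 higher, where 614 and 685 of 69957 tested regions were called higher. Of the 306, 102 had an unadjusted p under 0.05 in either direction (edgeR, no filter, 32.2% of all regions). The median log2 fold change was -0.51, against -0.25 over all regions, -0.57 in regions far from genes, -0.70 at the other chemoreceptor genes and 0.07 at gene start sites. With the filter, 12 of 139 Olfr regions were called, all lower, where 4.04% of tested regions were lower and 0.588% higher. That count hung on single libraries. Leaving out ex vivo replicate 3 gave 39 in the case of Ikzf1-cko and 21 in the case of WT. Leaving out ex vivo replicate 2 of WT or ex vivo replicate 1 or 2 of Ikzf1-cko gave 6. Over all tested regions the same fits called 8726, 5012, 2246, 2375 and 2018, against 3238 with all libraries, so the whole table moved too. Scaling on the Olfr regions themselves used the summed reads of the 274 without another start site, so it takes out their common shift by construction. It left 2 Olfr regions higher and 2 lower, where 1356 and 983 of the 69957 tested regions were called. A loess adjustment for abundance left 1 higher and 3 lower (847 and 738 of all tested regions). In 76 Olfr regions every Ikzf1-cko ex vivo library was below every WT ex vivo library, a pattern seen in 21.7% of all regions, and the reverse held in 11 (10.1% of all regions).

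After stimulation, 125 Olfr regions were lower in Ikzf1-cko than in WT Treg and 1 was higher, where 27.3% and 0.768% of all regions were called. The higher one, named after its values were seen, was OCR_17698 (chromosome 11, 48805680 to 48805978), at the start of Tgtp1 near Olfr56, with 10, 7 and 8 reads in WT stimulated and 24, 31 and 40 in Ikzf1-cko stimulated libraries (1.01 ± 0.36, adjusted p = 0.0209, edgeR). The median log2 fold change was -0.82, against -0.37 over all regions, -1.22 in regions far from genes and -1.23 at other chemoreceptor genes. With the filter, 50 of 139 were called, all lower (background 20.2% lower and 1.16% higher). Scaled on the Olfr regions, which takes out their common shift by construction, 16 were called higher and 16 lower. That scaling called 10354 of the 69957 tested regions higher and 7312 lower. With the loess adjustment 5 Olfr regions were higher and 4 lower (1562 and 2623 of all tested regions). The libraries of the 2 groups did not overlap in 176 Olfr regions that were lower in Ikzf1-cko (40.3% of all regions) and in 23 that were higher (14.5%).

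Stimulation of WT Treg gave 134 Olfr regions higher than ex vivo and 0 lower, where 25.5% and 1.55% of all regions were called. DESeq2 with the filter gave 0 lower too, and 189 of the 306 had an unadjusted p under 0.05 in either direction (51.1% of all regions). The median log2 fold change was 0.87, against 0.27 over all regions and 1.12 in regions far from genes. With the filter, 55 of 139 were called, all higher (background 17.7% higher and 2.32% lower). Scaling on the Olfr regions, which takes out their common shift by construction, left 27 higher and 9 lower (7231 and 9924 of the 69957 tested regions). In 169 Olfr regions all WT stimulated libraries were above all WT ex vivo libraries (35.5% of all regions), and in 24 they were below (15.6%).

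In Ikzf1-cko Treg, stimulation gave 45 Olfr regions higher and 2 lower, where 6.13% and 0.509% of all regions were called. Both lower ones, also named after their values were seen, lay on chromosome 7 beside no other start site: OCR_102918 near Olfr572 (-1.29 ± 0.34, adjusted p = 0.00935, edgeR) and OCR_103109 near Olfr514 (-1.05 ± 0.29, adjusted p = 0.0123). The median log2 fold change was 0.48, against 0.15 over all regions and 0.45 in regions far from genes. With the filter, 18 of 139 were called, all higher (background 3.02% higher and 0.632% lower). Leaving out replicate 3 of the ex vivo libraries took the Olfr count of 18 to 37. Leaving out replicate 2 of them or replicate 1 of the stimulated ones took it to 7. Over all tested regions these fits called 6792, 1720 and 1520, against 2555 with all libraries. Non-overlap was found in 108 higher (22.1% of all regions) and 22 lower Olfr regions (12.2%). The shares called in the Olfr regions, 8.82%, 40.9%, 43.8% and 14.7% in the 4 comparisons in the called direction, lay above the shares over all regions. That background is mixed in level: with the filter, 52 of the 139 tested Olfr regions (37.4%) fell in the weakest 20% of tested regions, of which 10.4%, 68.4%, 64.8% and 10.1% were called in either direction. Of those 52 Olfr regions, 6, 39, 42 and 13 were called in the same comparisons, and most of them passed the filter only through 1 group.

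**Figure D3:**
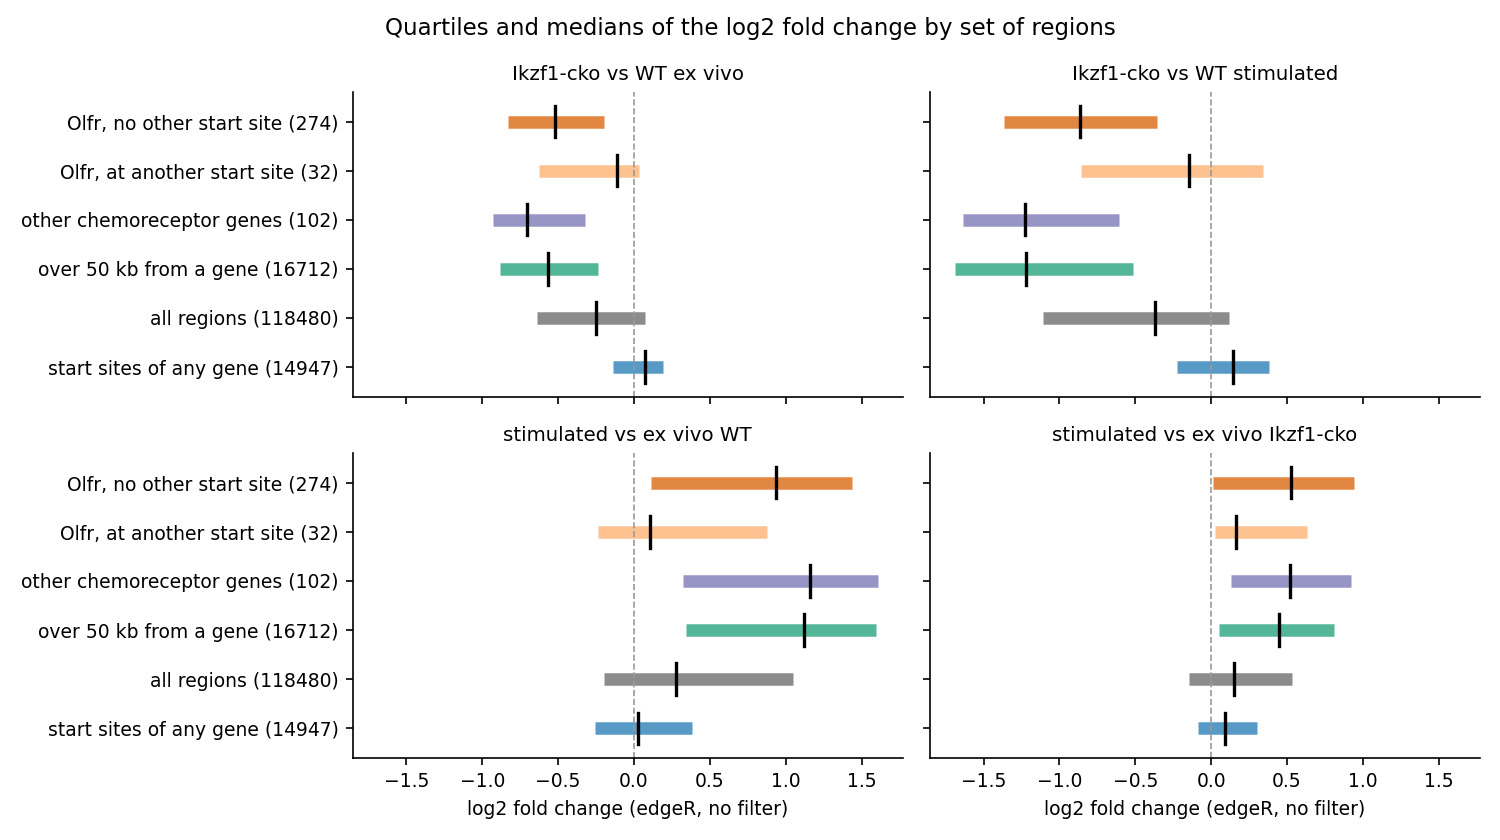
Median log2 fold change (tick) and quartiles (bar) of 6 sets of regions in the 4 comparisons, from the edgeR fit without a filter on low counts. The Olfr regions without another start site lie on the side of the regions far from genes and of the other chemoreceptor genes. Between genotypes, the median of the Olfr regions with another start site lies between those of all regions and of gene start sites. Ex vivo these medians are -0.11, -0.25 and 0.07, and after stimulation -0.148, -0.369 and 0.145.

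Level went with the direction of the difference. The Olfr regions were split by their mean over the 12 libraries into 3 sets of 102. In the weakest set, up to 6.08 FPKM, the summed CPM were 196 ± 31.98 (SD, n = 3) in WT ex vivo, 122 ± 24.99 in Ikzf1-cko ex vivo, 423 ± 35.6 in WT stimulated and 195 ± 25.5 in Ikzf1-cko stimulated libraries. That set did not overlap between groups in any of the 4 comparisons, with a ratio of Ikzf1-cko to WT of 0.624 ex vivo and 0.460 after stimulation, and of stimulated to ex vivo of 2.16 in WT and 1.59 in Ikzf1-cko. In the strongest set, above 7.37 FPKM, the same ratios were 0.964, 1.05, 0.883 and 0.964. All regions of the table in the lowest range (27178 regions) had ratios of 0.744, 0.516, 1.94 and 1.35, and those in the highest range (63343 regions) 1.03, 1.13, 0.889 and 0.972. Weak regions elsewhere in the table thus differed in the same directions as weak Olfr regions.

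**Figure D4:**
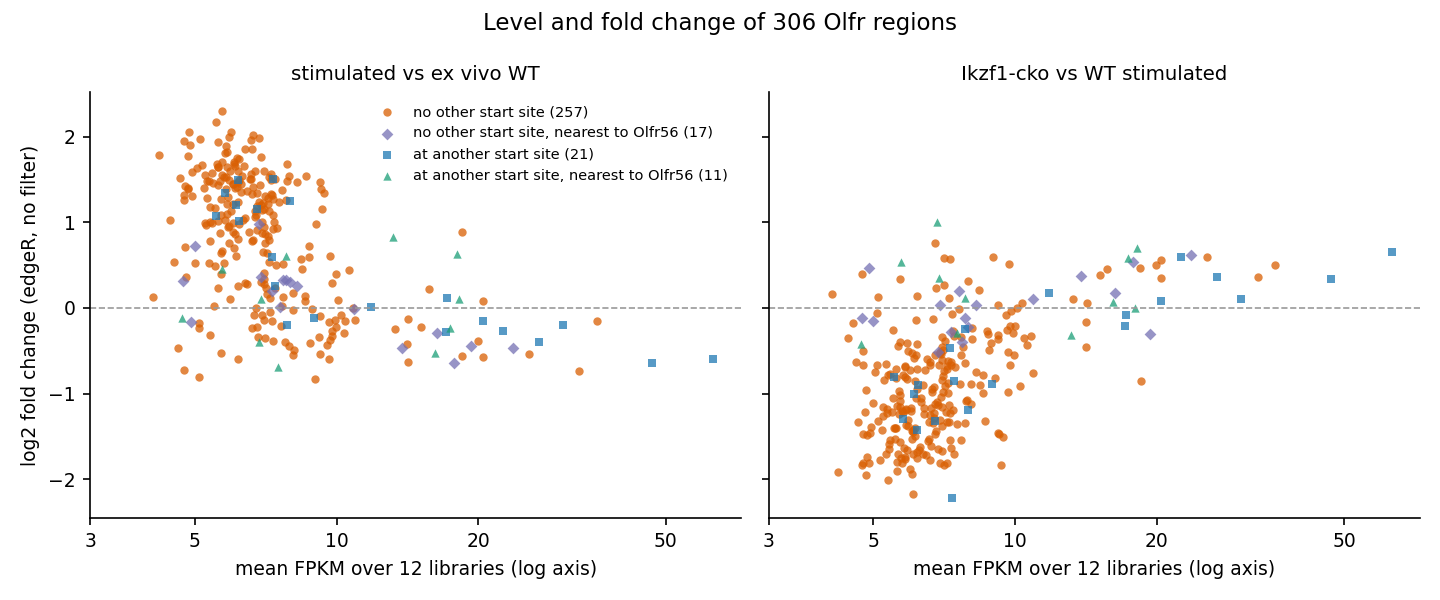
Mean FPKM of each of the 306 Olfr regions over the 12 libraries (horizontal, log axis) against its log2 fold change from the edgeR fit without a filter (vertical), for stimulated against ex vivo WT Treg and for Ikzf1-cko against WT stimulated Treg. Marker shapes separate regions by whether another gene's start site lies within 1 kb and whether Olfr56 is the nearest Olfr gene. Weak regions lie above 0 in the first panel and below 0 in the second, and the strongest, at 63.1 FPKM, does the opposite.

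The 12 clusters with 10 or more regions held 232 of the 306. Like stretches elsewhere were not summed, so the cluster counts that follow have no background. The regions far from genes and those at other chemoreceptor genes, each summed as a set, were lower in Ikzf1-cko in both states without overlap. They were also higher after stimulation of WT Treg without overlap. Summed over a cluster, CPM were lower in Ikzf1-cko ex vivo than in WT ex vivo without overlap of libraries in 8 clusters and higher in 1, and after stimulation lower in 10 and higher in 0. Stimulation left 9 clusters higher and 1 lower without overlap in WT Treg, and 4 higher and 1 lower in Ikzf1-cko Treg. The largest, 268 Olfr genes on chromosome 2 between 85171054 and 90241831, held 52 regions, which summed to 106 ± 21.3 CPM (SD, n = 3) in WT ex vivo, 64.0 ± 10.4 in Ikzf1-cko ex vivo, 212 ± 11.05 in WT stimulated and 104 ± 12.3 in Ikzf1-cko stimulated libraries. Another on chromosome 2, with 16 regions between 36140548 and 37188253, had the widest span, at 2.43 times WT ex vivo in WT stimulated Treg and 0.383 times WT stimulated in Ikzf1-cko stimulated Treg.

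Some clusters, such as those that follow on chromosomes 11 and 17, departed from this. On chromosome 11, 29 regions between 48792391 and 49378362, of which 11 lay at other start sites, summed to 118, 116, 118 and 133 CPM in WT ex vivo, Ikzf1-cko ex vivo, WT stimulated and Ikzf1-cko stimulated Treg. The cluster on chromosome 17 holds H2-M3, which encodes an MHC class I molecule that presents formylated peptides. It summed to 127, 104, 101 and 98.6 CPM and was lower after stimulation in both genotypes without overlap. That sum includes OCR_50450, the Olfr region with the most reads, at the H2-M3 start site. The median over the cluster's 10 regions was 9.30, 6.90, 13.1 and 7.53 FPKM in the same groups. Their median log2 fold change for stimulation was 0.34 in WT and 0.25 in Ikzf1-cko (edgeR, no filter). The cluster thus departed in its sum and not in its typical region. The cluster on chromosome 7 with 145 Olfr genes, which encloses 2 beta-globin genes, did not depart for genotype or for WT stimulation: its 35 regions summed to 152, 125, 169 and 119, and overlapped only between the Ikzf1-cko groups.

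**Figure D5:**
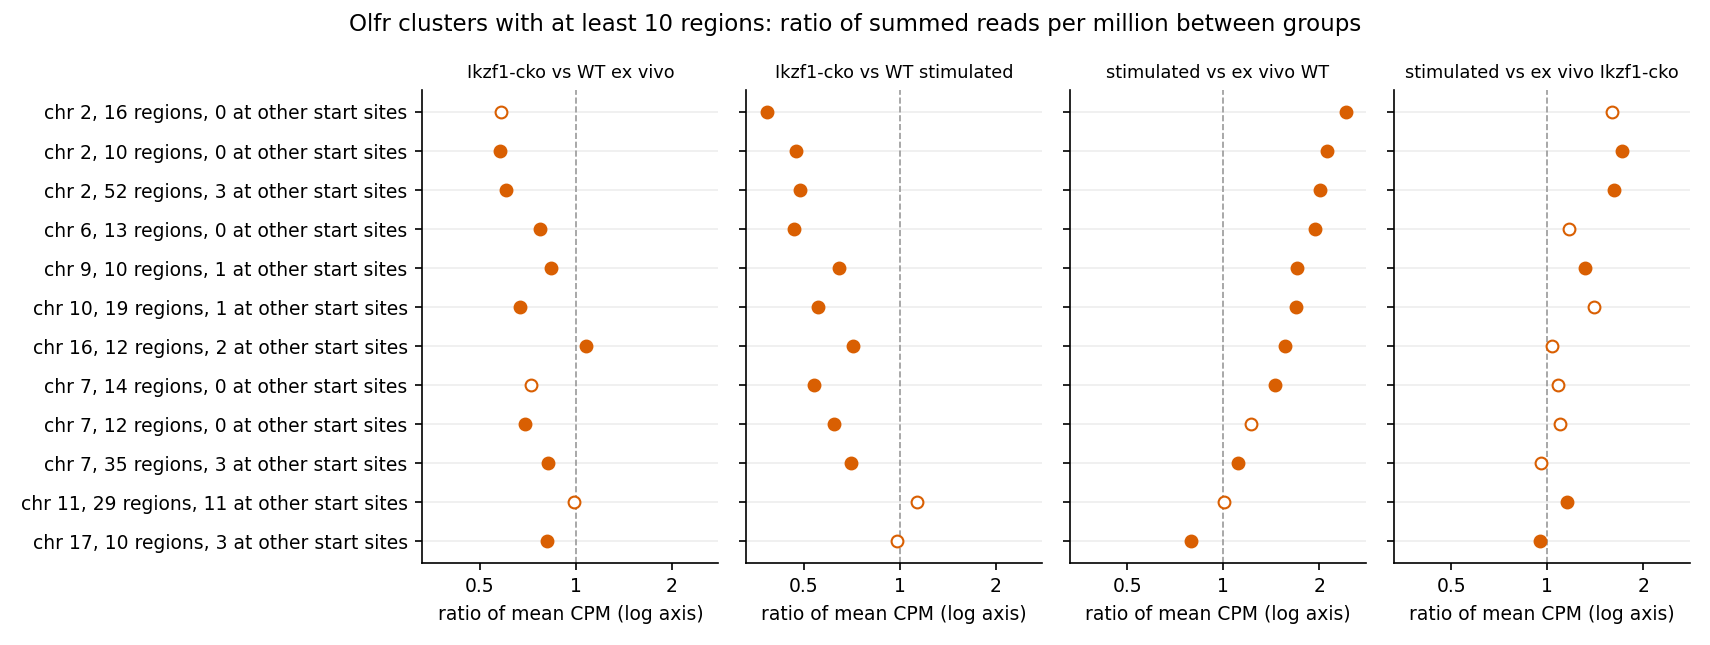
Ratio of mean CPM (horizontal) in the 4 comparisons for each of the 12 Olfr gene clusters with 10 or more regions. Filled points mark clusters in which the 3 libraries of one group do not overlap those of the other, and open points mark overlap. The ratios run from 0.383 to 1.13 for Ikzf1-cko against WT after stimulation and from 0.793 to 2.43 for stimulated against ex vivo WT Treg.

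Among single regions, OCR_46584 (chromosome 16, 59369884 to 59370549) showed the widest genotype difference among those named. It had 6.36, 7.76 and 3.32 FPKM in WT ex vivo, 1.27, 1.09 and 1.67 in Ikzf1-cko ex vivo, 11.7, 10.4 and 12.5 in WT stimulated, and 2.93, 2.44 and 3.14 FPKM in Ikzf1-cko stimulated libraries. It was lower in Ikzf1-cko in both states without overlap, by a log2 fold change of -2.09 ± 0.34 (SE, adjusted p = 4.88e-05, edgeR) ex vivo and -2.01 ± 0.30 (adjusted p = 4.67e-06) after stimulation. OCR_98683 (chromosome 7, 6515228 to 6516205) had 2.95, 3.66 and 1.90 FPKM in WT ex vivo, 0.999, 1.41 and 2.45 in Ikzf1-cko ex vivo, 10.3, 7.85 and 11.1 in WT stimulated, and 3.66, 2.29 and 1.87 in Ikzf1-cko stimulated libraries. The WT stimulated libraries stood above all others, and the other groups overlapped. It passed the filter only through the WT stimulated libraries, so its values are those of the edgeR fit without a filter, a log2 fold change of 1.79 ± 0.29 (SE, adjusted p = 2.73e-05) for stimulation in WT and -1.92 ± 0.27 (adjusted p = 5.58e-06) for genotype after stimulation. OCR_92654 (chromosome 6, 42746509 to 42747170) had 5.52, 4.40 and 4.39, then 1.97, 1.87 and 3.62, then 14.2, 9.94 and 13.2, and 5.41, 4.00 and 4.35 FPKM in the same order of groups. Here the WT ex vivo libraries also lay above Ikzf1-cko ex vivo, and the fold changes past the threshold were 1.40 ± 0.26 (adjusted p = 8.26e-05, edgeR) for stimulation in WT and -1.45 ± 0.25 (adjusted p = 2.42e-05) for genotype after stimulation. In OCR_15893 (chromosome 10, 128957050 to 128957992), the values were 4.90, 5.20 and 3.95, then 1.86, 1.77 and 2.63, then 8.77, 8.53 and 10.1, and 7.13, 4.86 and 3.51 FPKM. Both Ikzf1-cko groups separated here, at 1.30 ± 0.24 for stimulation (adjusted p = 0.000169, edgeR), and ex vivo it was lower in Ikzf1-cko by -1.16 ± 0.26 (adjusted p = 0.00167). With a pseudocount of 1 on the FPKM in limma, both log2 values of OCR_15893 came under 1 in size.

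The 2 called regions over an Olfr start site were both on chromosome 7. OCR_98680 (6392495 to 6393149, Olfr1344) had 8.22, 5.06 and 1.78 FPKM in WT ex vivo, 2.68, 1.77 and 2.74 in Ikzf1-cko ex vivo, 11.6, 11.7 and 14.0 in WT stimulated, and 5.96, 3.42 and 4.66 in Ikzf1-cko stimulated libraries. It was higher after stimulation of WT Treg (log2 fold change 1.41 ± 0.32, adjusted p = 0.000615, edgeR) and lower in Ikzf1-cko stimulated than in WT stimulated Treg (-1.41 ± 0.30, adjusted p = 0.000259). Without WT ex vivo replicate 3, the lowest WT library, the first was 0.94 and no longer called. OCR_102934 (111188310 to 111188827, Olfr641) had 4.83, 3.58 and 3.14, then 1.63, 1.12 and 3.79, then 10.5, 7.41 and 12.4, and 3.98, 1.38 and 3.20 FPKM in that order. The WT stimulated libraries were again above all others, and since it too passed the filter only through them, its values are from the edgeR fit without a filter, 1.42 ± 0.38 over WT ex vivo (adjusted p = 0.00358) and -1.82 ± 0.38 for genotype after stimulation (adjusted p = 0.000286). With the filter and the loess adjustment these 2 values were -0.03 and -0.27.

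In the stimulation of Ikzf1-cko Treg, OCR_102173 (chromosome 7, 93416065 to 93416513, 727 bp from Olfr310) had 2.76, 2.91 and 2.28 FPKM ex vivo and 8.45, 9.29 and 6.02 stimulated. It passed the filter only through stimulated libraries, so its value is that of the edgeR fit without a filter. This was a log2 fold change of 1.55 ± 0.30 (SE, adjusted p = 0.000466). OCR_64349 (chromosome 2, 90235223 to 90235413, beside the pseudogene Olfr1274-ps) had 7.84, 6.09 and 7.16 against 19.3, 15.45 and 17.35 FPKM. Its log2 fold change was 1.29 ± 0.31 (adjusted p = 0.00296, edgeR with the filter). Neither pair of groups overlapped, but neither call was kept with counts thinned to the smallest library, at a log2 fold change of 0.81 (adjusted p = 0.178, edgeR) and 1.105 (adjusted p = 0.0725). That of OCR_64349 ran from 1.072 to 1.385 over its alternatives.

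Some of the named regions lay at the start sites of other genes. OCR_46569 (chromosome 16, 58750463 to 58751259), at a SNORA17 small nucleolar RNA gene beside Olfr172, had 5.07, 5.82 and 3.65 FPKM in WT ex vivo and 12.03, 9.40 and 11.7 in WT stimulated libraries (log2 fold change 1.21 ± 0.22, SE, adjusted p = 6.09e-05, edgeR). Of the 3 regions with the highest means over the 12 libraries, OCR_43512 and OCR_50450 went the other way after stimulation of WT Treg. OCR_43512 (chromosome 16, 3846809 to 3847596), at the start of the zinc finger gene Zfp174 beside Olfr15, had 67.4, 64.6 and 71.7 FPKM in WT ex vivo, 70.4, 67.9 and 69.2 in Ikzf1-cko ex vivo, 46.6, 45.0 and 43.0 in WT stimulated, and 70.9, 64.1 and 76.2 in Ikzf1-cko stimulated libraries. WT stimulated libraries were the lowest here (log2 -0.60 ± 0.09 against WT ex vivo, adjusted p = 4.72e-06, edgeR), a difference too small to be called. OCR_50450 (chromosome 17, 37406779 to 37408206), at the start of H2-M3, fell from 54.7, 53.2 and 60.1 FPKM in WT ex vivo to 38.7, 33.3 and 35.4 in WT stimulated libraries (-0.65 ± 0.08, adjusted p = 1.65e-07), likewise under the size needed for a call. OCR_35486 (chromosome 14, 51684158 to 51685298), 4688 bp from Olfr750 and at no other start site, had 26.8, 36.8 and 34.8 FPKM in WT ex vivo, 37.4, 41.6 and 34.8 in Ikzf1-cko ex vivo, 30, 29.8 and 29.9 in WT stimulated, and 39.6, 40.0 and 46.7 in Ikzf1-cko stimulated libraries. Stimulation did not show a difference in OCR_35486, at -0.15 ± 0.11 in WT (adjusted p = 0.261, edgeR) and 0.15 ± 0.09 in Ikzf1-cko (adjusted p = 0.22). Unlike most Olfr regions, it was higher in Ikzf1-cko after stimulation (0.50 ± 0.10, adjusted p = 0.000214).

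No Olfr region was called for the interaction, in which the genotype difference after stimulation is set against that ex vivo. The count was 0 of 139 with the filter (background 1.98%) and 0 of 306 without it (1.24%). At an unadjusted p under 0.05 there were 20 (24.5% of tested regions) and 38 (20.6%), and DESeq2, TMM scaling and limma also called 0. At an adjusted p under 0.05 with no size threshold, 4 Olfr regions passed in edgeR, where 7.48% of tested regions did. They were OCR_43512, OCR_50450, OCR_7485 and OCR_17710.

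The genes that olfactory neurons use around the receptors were looked at by the region over their start sites, from a list of 23. No region lay over the start sites of Omp, the marker of mature olfactory neurons, of the channel subunits Cnga2, Cnga4 and Cngb1, of the chloride channel Ano2, of the receptor transporters Rtp1 and Rtp2, or of Stoml3. The other 15 had one, and 14 were tested. Pde1c, which encodes a calmodulin-dependent phosphodiesterase, was called lower in Ikzf1-cko ex vivo (3.12 ± 0.840 FPKM against 6.26 ± 1.16, SD, n = 3, log2 fold change -1.01, adjusted p = 0.0133, edgeR) and after stimulation (4.79 ± 2.16 against 12.2 ± 3.50, log2 fold change -1.38, adjusted p = 0.000102). It was 1 of 14 in each, where 4.04% and 20.2% of tested regions were called lower, and DESeq2 called 0 ex vivo and 1 after stimulation. The edgeR test called 0 of the 14 in either stimulation comparison. Of all tested regions it called 17.7% higher and 2.32% lower in WT, and 3.02% and 0.632% in Ikzf1-cko. At an unadjusted p under 0.05 there were 11 of the 14 in WT and 7 in Ikzf1-cko (edgeR, 53.5% and 36.2% of tested regions). DESeq2 called 0 of the 14 in both, and 13912 and 2234 of all 69957 tested regions. Adcy3, the adenylyl cyclase of olfactory cilia, had 42.5, 42.5, 28.6 and 38.9 FPKM in WT ex vivo, Ikzf1-cko ex vivo, WT stimulated and Ikzf1-cko stimulated Treg (group means). Ric8b, an exchange factor for the olfactory G protein, had 63.6, 82.1, 52.4 and 71.9, and Gnal, which encodes the alpha subunit of that G protein, 6.39, 3.93, 9.34 and 5.28. Atf5, a transcription factor gene of olfactory neurons, had 46.5, 51.0, 53.9 and 66.3 FPKM, with its lowest mean in WT ex vivo Treg. The list had no common order: of the 15 regions, 7 had their highest mean in WT stimulated Treg and 4 in Ikzf1-cko stimulated Treg, and the lowest mean was in Ikzf1-cko ex vivo for 6, in WT ex vivo for 5 and in WT stimulated Treg for 3.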

How the data were processed

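ATAC-seq of 12 libraries of YFP+ Treg, 3 in each of 4 groups, was analysed from the authors' deposited table of regions. The authors aligned reads with bowtie2, removed duplicates, called MACS2 peaks for each replicate and merged peaks seen in at least 2 replicates. The submitters' processing notes name mm9, Bowtie2, MACS2 and bcl2fastq, without versions, and the region coordinates fitted mm9 (the methods text names hg19). The deposited values are counts of reads per region and library and the authors' FPKM, which equal the count divided by the region's length and by the total of the library. A deposited table of the authors' own comparisons (log2 fold changes, F statistics, p-values) was not used. Reads outside regions were not analysed here, so the authors' scaling on background bins was replaced by library totals.

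Olfr regions were found with the mm9 annotation (window 10 kb). The 118480 regions on its chromosomes entered the fits, and 200 regions, without reads, lay on others. Counts were tested with edgeR 4.0.16 (R 4.3.3, quasi-likelihood, 4 group means, filter of 3.6 CPM in at least 3 libraries, 69957 regions tested, Benjamini-Hochberg). A region was called at an adjusted p under 0.05 and a log2 fold change over 1 in size. On simulated data for the ex vivo comparison of 69957 regions, 197 of 200 regions given a log2 fold change of 2 were recovered, with 5 false calls. Single values per library were compared by two-sided exact permutation tests (Python 3.11.15 with NumPy 2.4.6), adjusted over 30 tests. Totals of 4808916 to 15355521 counted reads per library and medians of 11 to 25 reads per Olfr region limit precision. Alternatives used DESeq2 1.42.0, limma 3.58.1 on log2(FPKM + 1) and log2(FPKM + 0.1), TMM, loess and other scalings, filters and windows, thinned counts, and each library left out in turn. Second genomic copies were found with blastn 2.17.0.

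The rule for Olfr regions and the gene lists were chosen with earlier results of these data known. Named regions were the 3 with the highest mean FPKM, the 3 called regions with the smallest p in each direction of each comparison, and called regions over an Olfr start site. A region that this rule named, and a marker gene, are not reported here. Regions outside this rule are said in the text to have been chosen after their values were seen. Sequences come from the mm9 genome.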

Additional observations from a re-analysis of the deposited data

Results flagged for a closer look

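The interaction of genotype and stimulation (edgeR, adjusted p under 0.05, no size threshold) passed in 4 Olfr regions, of 139 tested, where 7.48% of all tested regions passed. All 4 have their lowest group mean in WT stimulated Treg. In OCR_43512, at the Zfp174 start site, the genotype difference was larger after stimulation than ex vivo by 0.62 ± 0.12 on the log2 scale (SE, adjusted p = 0.00126), with a difference of 0.02 ex vivo and 0.65 after stimulation. In OCR_50450, at the H2-M3 start site, the interaction was 0.50 ± 0.11 (adjusted p = 0.00306), from -0.17 ex vivo and 0.34 after stimulation, and it missed the threshold with the loess adjustment (0.27, adjusted p = 0.0977).

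The other 2 lie at no start site of another gene and were named after their values were seen. OCR_7485 (chromosome 1, 175970652 to 175971713), 351 bp from Olfr433, had 39.5, 39.7 and 44.7 FPKM in WT ex vivo, 35.6, 33.1 and 29.0 in Ikzf1-cko ex vivo, 23.1, 26.2 and 25.9 in WT stimulated, and 29.2, 36.6 and 30.6 in Ikzf1-cko stimulated libraries. Ikzf1-cko was below WT ex vivo and above it after stimulation, without overlap in either, and the interaction was 0.71 ± 0.14 (adjusted p = 0.00246, edgeR). OCR_17710 (chromosome 11, 48898196 to 48898924), over Olfr56 and Ifi47, a gene for an interferon-inducible GTPase, had 26.4, 21.6 and 29.0 FPKM in WT ex vivo, 23.1, 24.5 and 17.8 in Ikzf1-cko ex vivo, 16.6, 21.3 and 17.97 in WT stimulated, and 28.3, 30.2 and 27.5 in Ikzf1-cko stimulated libraries, with an interaction of 0.85 ± 0.19 (adjusted p = 0.00555, edgeR). The ex vivo groups overlapped in OCR_17710 and the stimulated groups did not. Over 23 alternatives each, the adjusted p ran from 0.000248 to 0.0288 for OCR_43512, from 0.000238 to 0.0269 for OCR_7485, from 0.000635 to 0.0977 for OCR_50450 and from 0.00035 to 0.0442 for OCR_17710.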

How the results depend on the processing

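Counts of called Olfr regions are given in the order Ikzf1-cko against WT ex vivo, the same after stimulation, stimulated against ex vivo WT, and stimulated against ex vivo Ikzf1-cko, where the reported counts with the filter were 12, 50, 55 and 18 of 139. Over all 69957 tested regions the counts were 3238, 14932, 14011 and 2555. The Olfr counts were 0, 0, 0 and 0 of 39 when a region had to reach 3.6 CPM in all 12 libraries, an alternative that keeps strong regions by construction. Of all 34257 regions kept in that way, 339, 858, 1239 and 276 were called. Without a filter the Olfr counts were 27, 126, 134 and 47 of 306, and 7237, 33290, 32084 and 7870 of 118480 regions were called. With the loess adjustment the Olfr counts were 4, 9, 6 and 4, where 1585, 4185, 4198 and 1446 of the 69957 tested regions were called. With scaling on Olfr regions (added after seeing the data) they were 4, 32, 36 and 11, where 2339, 17666, 17155 and 2302 were called. Over gene bodies alone the Olfr counts were 1, 4, 5 and 1 of 28, and at an adjusted p under 0.05 alone 28, 90, 83 and 34 of 139. At the adjusted p alone no count over all tested regions is given for these 4 comparisons, so those Olfr counts have no background. A window of 50 kb gave 19, 95 and 93 of 370 in the first 3. Scaling on ribosomal protein gene start sites gave 23 in the first and 10 in the fourth (5694 and 2037 of all tested regions). There limma on log2(FPKM + 1) gave 3 and 7 (1668 and 1121 of all tested regions). Thinned counts gave 6 in the fourth (2191 of all tested regions). Leaving out the 3 stimulated WT libraries, also added after seeing the data, gave 11 there (2040 of all tested regions). Leaving out 1 library at a time gave 6 to 39, 46 to 58, 42 to 55 and 7 to 37. Over all tested regions those fits called 2018 to 8726, 13483 to 16297, 11420 to 15046 and 1520 to 6792. For the interaction (0 called) leaving out 1 library gave 0 to 1, scaling on Olfr regions gave 2, thinned counts 1 and the adjusted p alone 4. Of all tested regions, leaving out 1 library called 486 to 3376, scaling on Olfr regions 3523, thinned counts 947 and the adjusted p alone 5232. Olfr counts with DESeq2 were 9, 45, 51 and 14, where 2405, 14348, 13912 and 2234 of all tested regions were called. With TMM they were 10, 46, 54 and 17, where 2490, 14470, 14076 and 2351 were called. Apart from the values given here, the cause of these changes was not tested.

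Scaling on Olfr regions put the median of all tested regions at 0.14, 0.44, -0.41 and -0.12 on the log2 scale. The 50 kb window took the genotype and stimulation differences of the Olfr share to -0.00755 (p = 0.12, exact) and 0.00761 percentage points (p = 0.125, exact), while leaving out 1 library at a time gave -0.028 to -0.0255 and 0.0194 to 0.0219. For single comparisons of the share, leaving out 1 library gave -0.0193 to -0.0153, -0.0389 to -0.0339, 0.0281 to 0.0325 and 0.00897 to 0.0135. With far regions taken at over 100 kb, the Olfr to far ratio (log2) was -0.0822 for stimulation in Ikzf1-cko (p = 0.4, exact) and -0.24 for stimulation within genotypes (p = 0.02, exact). OCR_102934 turned its sign with the loess adjustment in WT stimulated against ex vivo (-0.0259, adjusted p = 0.962).

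Replicate numbers are shared by the groups. Over 18 pairs of libraries with the same number the correlation of their deviations from the group means ran from -0.40 to 0.30 (median -0.02, against 0.01 for other numbers). These correlations show no pairing by number, but deviations from means of 3 libraries cannot exclude a shared source. With the replicate number as a block the Olfr counts were 11, 49, 55, 13 and 0 for the interaction. Over all tested regions they were 3073, 14912, 13889, 2315 and 1158. Detection of small differences in weak Olfr regions was not measured.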
